A study of Mus musculus with 6 samples.

Results

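The PARP family genes make enzymes that take ADP-ribose from NAD and attach it to proteins, and 10 of them are described here in horizontal basal cells (HBCs), the reserve stem cells at the base of the olfactory epithelium. Rows of the deposited table whose gene field names Parp1, Parp2, Parp3, Parp4, Parp8, Parp9, Parp10, Parp11, Parp12 or Parp14 were taken, which gave 10 of 44519 rows. The genes were chosen by their FPKM in TNF against control libraries, with earlier results of these data in view, so their values in that comparison are a description, with no test.

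Bulk RNA was measured in 6 libraries of GFP-positive cells sorted from mouse olfactory neuroepithelium. In the TNF group (3 libraries, replicates 1, 3 and 4), mice carried Krt17-EGFP with Cyp2g1-rtTA and TRE-TNF and are labelled as given doxycycline for 6 weeks, which switches on tumor necrosis factor (TNF) through a sustentacular cell promoter. In the control group (3 libraries, replicates 1, 2 and 4), mice carried Krt17-EGFP alone and are labelled as without doxycycline. The reporter is shared by all libraries, and genotype and doxycycline differ together, so their effects cannot be told apart. The labels do not say whether a library came from 1 animal, so p-values reflect only how these samples varied, which may be technical. The age of the mice is not in the labels.

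PARP1 and PARP2 build chains of ADP-ribose at DNA breaks, which recruits repair proteins, and PARP3 also acts at breaks. PARP9, PARP10, PARP11, PARP12 and PARP14 belong to the branch that adds single ADP-ribose units or, for PARP9, acts with the ubiquitin ligase DTX3L, and these genes are known as interferon-stimulated genes or as antiviral factors. PARP4 is the enzyme of the vault, a large ribonucleoprotein particle, and PARP8 is a less studied member that adds single units. The genes are described below as interferon-linked (5), DNA repair (3) and other (2) members.

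Promoter sequences were examined for motifs through which interferon and NF-kB act, because members of different classes had like values. The RefSeq promoter table (GRCm38.p6, from 250 bases before to 50 after each gene start) held 8 promoters for 7 of the 10 members, all but Parp9, Parp10 and Parp14. On both strands, 3 motifs were searched in the whole window. They were an ISRE-like motif (GAAA, any 2 bases, GAAA), which stands in 3.44% of all 32851 promoters in the table, a GAS motif (TTCNNNGAA, 8.3%) and a kB-like motif (GGG, any 2 bases, TTTCC, 1.63%). Matches were found for 2 members. The promoter of Parp4 holds 2 overlapping ISRE-like matches, from 150 to 135 bases before the start. The first of 2 promoters of Parp11 holds an ISRE-like match on the reverse strand (44 to 35 bases before the start), which overlaps a GAS match (37 to 29 before), and a kB-like match on the reverse strand (120 to 111 before). The promoters of Parp1, Parp2, Parp3, Parp8 and Parp12 and the second of Parp11 hold none of these letters. The bases before the start are shown for the members with a match and, to set beside them, for Parp12 and Parp1, 5′ to 3′ on the gene's strand, with matches in capitals. For Parp4 the far end of the window is left off, because the neighbouring Cenpj is transcribed there in the other direction.
Parp4, the 193 bases next to the start (chr14:56575426-56575618, plus strand): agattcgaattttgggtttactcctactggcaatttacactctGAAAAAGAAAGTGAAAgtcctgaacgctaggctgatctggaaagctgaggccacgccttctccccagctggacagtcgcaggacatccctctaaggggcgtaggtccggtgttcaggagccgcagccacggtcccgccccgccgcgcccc
Parp11, first promoter (chr6:127446590-127446839, plus strand): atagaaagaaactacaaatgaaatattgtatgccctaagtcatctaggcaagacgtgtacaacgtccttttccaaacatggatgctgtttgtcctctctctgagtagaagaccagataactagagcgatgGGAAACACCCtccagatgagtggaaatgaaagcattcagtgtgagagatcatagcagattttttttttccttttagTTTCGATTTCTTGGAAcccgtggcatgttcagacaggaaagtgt
Parp12 (chr6:39118350-39118599, minus strand): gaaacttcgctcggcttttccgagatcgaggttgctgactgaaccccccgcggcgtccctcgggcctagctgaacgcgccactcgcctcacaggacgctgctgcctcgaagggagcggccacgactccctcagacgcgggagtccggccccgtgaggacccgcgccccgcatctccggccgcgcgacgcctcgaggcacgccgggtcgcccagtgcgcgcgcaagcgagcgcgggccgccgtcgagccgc
Parp1 (chr1:180568641-180568890, plus strand): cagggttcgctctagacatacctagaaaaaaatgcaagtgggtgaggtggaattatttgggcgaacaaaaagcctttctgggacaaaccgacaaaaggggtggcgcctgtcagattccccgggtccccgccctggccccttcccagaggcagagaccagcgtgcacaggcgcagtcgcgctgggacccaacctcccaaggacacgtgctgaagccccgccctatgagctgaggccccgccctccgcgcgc
A match is a description of letters and not of a bound site, and these sequences are referred to below where the members' values are given.

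Across the family, 7 of 10 members were higher in every TNF library than in every control library, 0 were lower in every TNF library, and 3 overlapped. The values are FPKM, fragments per kilobase of transcript scaled to the fragments mapped in the library, a level per length that can be set side by side between genes. Of all 15037 tested rows, 16.8% were higher in TNF libraries without overlap and 36.2% were lower, which makes 53.0% in either direction. The 7 members were Parp9, the merged Parp10 row, Parp12 and Parp14 of the interferon-linked class, Parp3 of the DNA repair class, and Parp4 and Parp8. Of these, Parp4 is among the tested rows only through the group where it is high. Parp11, Parp1 and Parp2 overlapped. The median difference in log2(FPKM + 1), TNF minus control, was 1.61 for the interferon-linked members, −0.22 for the DNA repair members and −0.22 for all tested rows. The class names therefore did not separate the members, since Parp3 lay with the higher genes and Parp11 with the genes whose groups overlapped. In bulk samples, fewer cells of a type and less RNA per cell cannot be told apart.

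**Figure D1:**
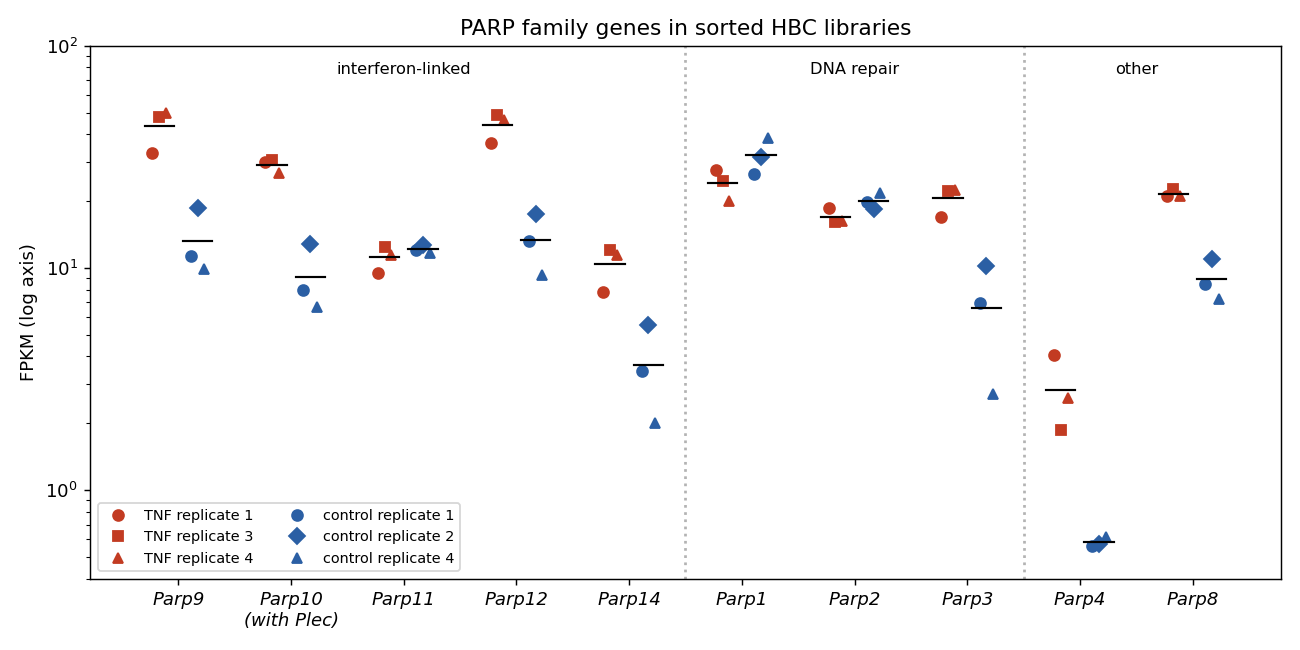
FPKM on a log axis for the 10 PARP family genes in each library, TNF in red and control in blue, and black bars for the means of the groups. The red points lie above all control points for Parp9, the row of Parp10 and Plec, Parp12, Parp14, Parp3, Parp4 and Parp8, and the groups overlap for Parp11, Parp1 and Parp2.

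Among the interferon-linked members, Parp9 (chromosome 16, 35938470 to 35972605, plus strand, mm10, GENCODE M21 bounds) had 32.8, 47.7 and 49.8 FPKM in TNF replicates 1, 3 and 4, against 11.3, 18.6 and 9.90 FPKM in control replicates 1, 2 and 4. The lowest TNF library stood above the highest control, and the difference in log2(FPKM + 1) was 1.66 ± 0.28 (SE). PARP9 forms a complex with the ubiquitin ligase DTX3L, and the gene for it, Dtx3l (35926511 to 35939151, minus strand), starts head to head with Parp9. Dtx3l was no member, and it rose to 13, 23.6 and 21.9 FPKM in TNF libraries, against 4.34, 6.74 and 3.45 FPKM in control libraries (1.81 ± 0.31, adjusted p = 0.00499, limma). The ratio of Parp9 to Dtx3l FPKM was 2.52, 2.02 and 2.27 in TNF libraries and 2.61, 2.76 and 2.87 in control libraries, slightly lower in each TNF library. The exons of Parp9 and Dtx3l overlap, and no source used here gives the strand of the reads, so some fragments may be shared between these values.

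Parp14 (chromosome 16, 35832874 to 35871544, minus strand), the macrodomain PARP that acts in interleukin 4 and interferon signalling, lies 54967 bases from Dtx3l on the same chromosome. It had 7.84, 12.0 and 11.5 FPKM in TNF libraries, against 3.45, 5.57 and 2.0 FPKM in control libraries, with no overlap and a log2 difference of 1.35 ± 0.34. Its other neighbour, Hspbap1, 4397 bases away, was at 2.48, 2.43 and 2.22 FPKM in TNF and 2.36, 2.38 and 3.95 FPKM in control libraries (log2 difference −0.18 ± 0.22, adjusted p = 0.557, limma). Parp14, Parp9 and Dtx3l, on a shared stretch of chromosome 16, were thus higher in every TNF library, while the groups overlapped for the expressed gene on the far side of Parp14.

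Parp12 (chromosome 6, 39086410 to 39118349, minus strand), a mono-ADP-ribosyltransferase with RNA-binding zinc fingers, had 36.6, 49.1 and 46.3 FPKM in TNF libraries, against 13.3, 17.6 and 9.32 FPKM in control libraries. The groups did not overlap, and the log2 difference of 1.67 ± 0.25 was the highest among the members, though it lay within its SE of those of Parp9, Parp3 and the Parp10 row. Its promoter, printed above, held none of the searched letters. The neighbouring Tbxas1 (1825 bases away) was at 0.524, 0.688 and 0.212 FPKM in TNF and 1.42, 1.17 and 5.85 FPKM in control libraries (log2 difference −1.18 ± 0.45, adjusted p = 0.0805, limma), and the transcript 4930599N23Rik on the other side did not pass either (adjusted p = 0.323).

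Parp11 (chromosome 6, 127446840 to 127494261, plus strand), whose product acts in mono-ADP-ribosylation at the nuclear envelope, was the interferon-linked member that did not separate the groups. It had 9.51, 12.5 and 11.5 FPKM in TNF libraries, against 12.1, 12.7 and 11.7 FPKM in control libraries. The groups overlapped, the log2 difference was −0.12 ± 0.18, and its sign turned under median-of-ratios scaling (0.11), upper-quartile scaling (0.08) and quantile normalization (0.11). Its first promoter held all 3 motif types, as printed above.

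Parp10, an enzyme that adds single ADP-ribose units, shares a merged row with its neighbour Plec, the gene of the plectin that links keratin filaments to hemidesmosomes. The row had 29.9, 30.6 and 26.7 FPKM in TNF libraries, against 7.98, 12.8 and 6.70 FPKM in control libraries, a log2 difference of 1.61 ± 0.25 with no overlap. How much of it comes from Parp10 cannot be told from these values. Itgb4, the hemidesmosome integrin that plectin binds, rose to 66.3, 56.8 and 45.7 FPKM in TNF libraries, against 12.5, 21.1 and 6.63 FPKM in control libraries (2.11 on the log2 scale, adjusted p = 0.00606, limma). Without the Parp10 row, the median log2 difference of the interferon-linked members was 1.5.

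Among the DNA repair members, Parp1 (chromosome 1, 180568924 to 180601254, plus strand), the main source of poly-ADP-ribose at DNA breaks, had 27.6, 24.7 and 20.1 FPKM in TNF libraries, against 26.5, 31.7 and 38.7 FPKM in control libraries. The groups overlapped through TNF replicate 1 and control replicate 1, with a log2 difference of −0.40 ± 0.20. Parp2 (chromosome 14, 50807841 to 50821301, plus strand), its closest relative in repair, had 18.6, 16.1 and 16.3 FPKM in TNF libraries, against 19.8, 18.4 and 21.7 FPKM in control libraries, with a narrow overlap and a log2 difference of −0.22 ± 0.16. That of all tested rows was also −0.22 at the median, and after median-of-ratios scaling Parp2 stood at 0.02.

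Parp3 (chromosome 9, 106470322 to 106476949, minus strand), which acts in the joining of double-strand breaks, lay apart from them. It had 17, 22.3 and 22.4 FPKM in TNF libraries, against 6.97, 10.2 and 2.71 FPKM in control libraries, with no overlap and a log2 difference of 1.63 ± 0.41. Its exons overlap those of Rrp9, a ribosome biogenesis gene on the opposite strand, so its level is uncertain. Rrp9 was at 33.6, 18.0 and 17.1 FPKM in TNF and at 25.7, 32.5 and 29.9 FPKM in control libraries (log2 difference −0.41 ± 0.28, adjusted p = 0.297, limma), and the part of shared fragments in the Parp3 values was not tested.

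Of the other members, Parp8 (chromosome 13, 116854820 to 117025537, minus strand) had 21.0, 22.6 and 21.0 FPKM in TNF libraries, against 8.49, 11.0 and 7.24 FPKM in control libraries. Its TNF libraries lay closer together than those of any other member (SD 0.955 on a mean of 21.5 FPKM), and the log2 difference was 1.2 ± 0.20. Parp4 (chromosome 14, 56575619 to 56659794, plus strand) was the lowest member, with 4.05, 1.87 and 2.61 FPKM in TNF libraries, against 0.56, 0.575 and 0.616 FPKM in control libraries. It reached 1 FPKM in TNF libraries alone, so it passed the filter on low values only through the group where it is high, and its difference depended on the pseudocount (1.24 ± 0.24 with 1, 2.04 with 0.1). The promoter with the overlapping ISRE-like matches is that of Parp4. Beside it, Cenpj, which starts 194 bases away on the other strand, was at 3.09, 5.19 and 5.93 FPKM in TNF and 8.57, 7.52 and 7.83 FPKM in control libraries (−0.68 ± 0.25, adjusted p = 0.0767, limma).

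The order of the members turned between the groups. In control libraries Parp1 ranked first of the 9 single-gene members in each library, with a mean of 32.3 ± 6.14 FPKM (SD, n = 3), followed by Parp2 with 20.0 ± 1.65 FPKM. Parp12 (13.4 ± 4.17), Parp9 (13.3 ± 4.67) and Parp11 (12.2 ± 0.492 FPKM) came next and did not differ beyond their spread. In TNF libraries Parp12 (44.0 ± 6.55) and Parp9 (43.4 ± 9.25 FPKM) held the first and second ranks in each library and did not differ beyond their spread. They were followed by Parp1 (24.1 ± 3.75), Parp8 (21.5 ± 0.955) and Parp3 (20.6 ± 3.07 FPKM), whose ranges overlap. Parp14 ranked eighth and Parp4 ninth in all 6 libraries.

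Shares of the family's own total do not change when a library is multiplied by a single factor. Parp9, Parp12 and Parp14 made up 44.1%, 52.1% and 53.4% of the summed FPKM of the 9 single-gene members in TNF replicates 1, 3 and 4, against 27.4%, 33.1% and 20.4% in control replicates 1, 2 and 4. Parp1 and Parp2 made up 26.4%, 19.5% and 18.1% in TNF libraries, against 45.2%, 39.7% and 58.1% in control libraries. Neither pair of ranges overlapped. These groupings leave out the 2 members that lay against their classes, a choice made with the values in view. Parp11 made up 5.43% to 6.00% in TNF and 10.1% to 11.8% in control libraries, and Parp3 9.72% to 11.1% and 2.61% to 8.07%. Counting each in its class would narrow both contrasts. The ratio of Parp12 to Parp1 was 1.33, 1.99 and 2.30 in TNF libraries and 0.504, 0.556 and 0.241 in control libraries, so Parp12 was the higher gene in every TNF library and Parp1 in every control library.

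**Figure D2:**
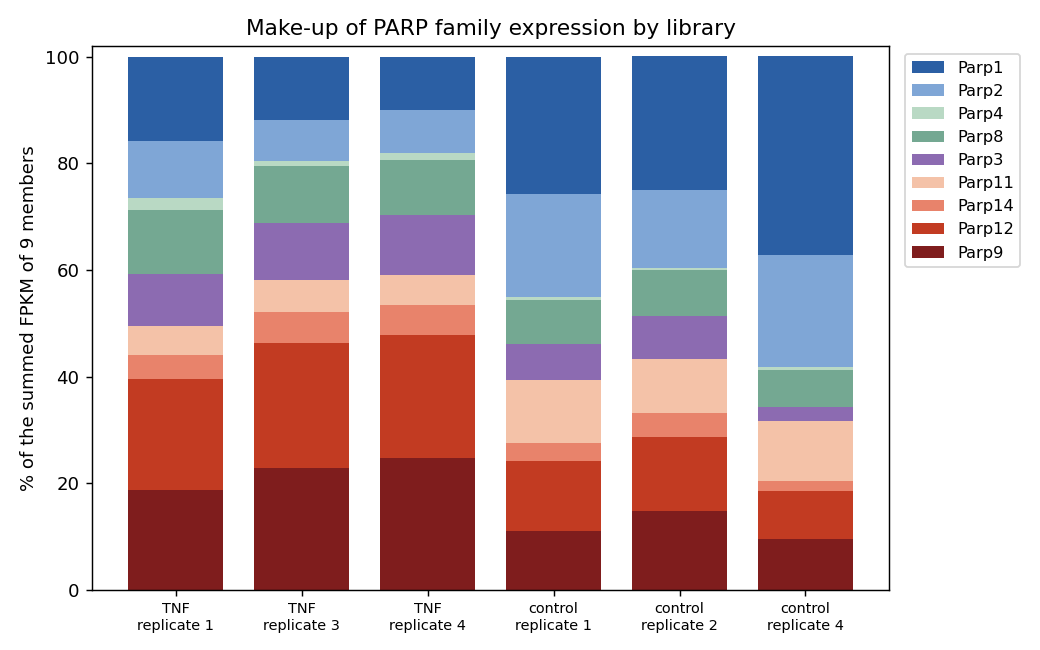
Share of each of the 9 single-gene PARP family members in their summed FPKM, in percent, for each TNF and control library. The blue shades (Parp1 and Parp2) fill 18.1% to 26.4% of the TNF bars and 39.7% to 58.1% of the control bars.

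The classes were also compared within each library. The mean log2(FPKM + 1) of the interferon-linked members minus that of the DNA repair members was −0.07, 0.30 and 0.31 in TNF replicates 1, 3 and 4, against −0.75, −0.51 and −0.90 in control replicates 1, 2 and 4. The mean was 0.18 ± 0.22 in TNF libraries and −0.72 ± 0.20 in control libraries (SD, n = 3 each), 0.90 apart, with no overlap. Leaving out Parp3, a choice made after its values were seen, widened the gap to 1.54, and leaving out the Parp10 row gave 0.80. TNF replicate 1 lay nearest to the controls.

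Marker genes of the cell types that may be in the sort differed between the libraries along with these values. The summed FPKM of 11 HBC marker rows was 4897 to 7611 in TNF libraries, against 744 to 3271 in control libraries. Most of this sum came from the merged row of Krt14 and Krt17, at 3645 to 5651 FPKM in TNF and 402 to 2265 FPKM in control libraries. That row did not pass (adjusted p = 0.0741, limma), and how far the markers measure the number of HBCs was not tested. Of the 11 rows, 4 rose and 0 fell, beside 10.9% and 27.2% of all tested rows (limma, adjusted p below 0.05). At an unadjusted p below 0.05, 0 of the 11 were lower. With 1 library left out, 1 to 4 rose, with 1 without control replicate 1 or TNF replicate 3. The defining gene Trp63 was at 117, 94.8 and 79.7 FPKM in TNF libraries and 86.1, 71.3 and 68.6 FPKM in control libraries. Immature and mature olfactory neuron markers fell in 6 of 6 and 8 of 8 rows, with summed FPKM of 8.02 to 44.2 and 34.2 to 695 in TNF libraries, against 1287 to 2683 and 1899.8 to 3790.0 in control libraries. Of the immature neuron rows, Dcx passed the filter only through control libraries, and 5 fell with any control library left out, where Dcx goes untested. Of the mature neuron rows, 2 or 3 fell when any library but TNF replicate 1 was left out. Within the controls the summed HBC markers were lowest in replicate 4 (744), then replicate 1 (2566) and replicate 2 (3271), and Parp9, the Parp10 row, Parp12, Parp14, Parp3 and Parp8 followed the same order. Within the TNF group they were highest in replicate 1, where Parp9, Parp12, Parp14 and Parp3 were lowest. The part of the makeup of the sort in the members' differences was not tested.

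When the libraries were scaled so that the median ratio of the HBC markers was equal, the median difference of all tested rows was −1.44 and the interferon-linked median 0.32. Under that scaling Parp9 stood at 0.35, Parp12 at 0.36, Parp14 at 0.20, Parp3 at 0.41, Parp4 at 0.44 and Parp8 at −0.08, while Parp1 and Parp2 stood at −1.73 and −1.52. The gap between the class means was 0.92 under this scaling, against 0.90 as deposited. This gap is taken within each library, and a single factor per library changes it little, so the likeness is no test of the makeup of the sort. Leaving out any single library moved no member's difference by more than the spread between replicates.

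**Figure D3:**
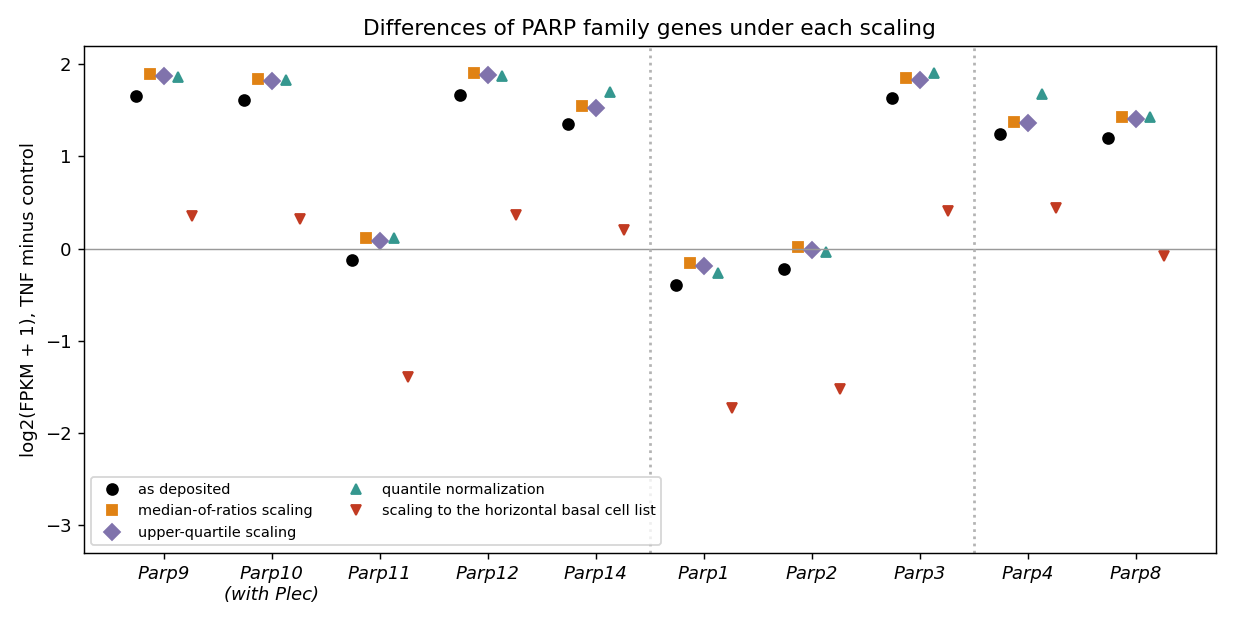
Difference in log2(FPKM + 1), TNF minus control, for the 10 PARP family genes with values as deposited and under each of 4 scalings. Scaling to the HBC list shifts all members downward, to 0.35 for Parp9 and −1.73 for Parp1, while the other scalings move each member by less than 0.5.

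Markers of other cells did not follow the members in a single way. Of all tested rows, 10.9% rose and 27.2% fell (limma, adjusted p below 0.05), and the counts below stand beside these shares. Of 12 macrophage and myeloid rows 1 rose and 8 fell. Without TNF replicate 3, 2 fell, and without TNF replicate 4, 4 fell. When a control library was left out 4 fell, with Adgre1 and Mrc1 then untested. The defining genes C1qa and Adgre1 were at 4.65 to 13.7 and 0.378 to 0.431 FPKM in TNF libraries, against 33.0 to 216 and 3.16 to 22.1 FPKM in control libraries. The list's summed FPKM, 605 to 1192 in TNF and 253 to 1374 in control libraries, was led by Cd14 in TNF libraries (552 to 1085 FPKM). T and NK cell rows fell in 3 of 4 tested, and 1 fell without TNF replicate 3 (sums 7.45 to 10.4 in TNF, 22 to 100 in control libraries). Of these, Cd3e and Cd3g passed the filter only through control libraries and go untested when a control library is left out. Neutrophil rows fell in 2 of 2 (3.33 to 6.29 and 33.6 to 65.0, with Retnlg at 0 in all TNF libraries and Ly6g at 0 in all control libraries). B and plasma cell rows fell in 4 of 6, 3 of which likewise passed only through control libraries (294 to 450.4 and 72.0 to 681). The merged Igkc row was at 256 to 379 FPKM in TNF libraries and at 45.9, 55.2 and 554 FPKM in control replicates 1, 2 and 4. Jchain was at 34.3 to 67.4 FPKM and at 0.218, 0.0769 and 105 FPKM. Without control replicate 4, 2 rows of this list rose and 1 fell. Fibroblast and endothelial sums were 41.7 and 1.89 in TNF replicate 1, 1084 to 1557 and 68.7 to 106 in TNF replicates 3 and 4, and 141 to 528 and 21.0 to 23.5 in control libraries, and 0 of 6 and 0 of 5 rows passed in limma (0 also at an unadjusted p below 0.05), though 4 of each rose without TNF replicate 1. The part of these cells in the members' values was not tested. Sustentacular rows rose in 2 and fell in 4 of 7, 2 without TNF replicate 3 or 4 or control replicate 1 or 2 (sums 2756 to 3478 in TNF, 1891 to 3597 in control libraries). The globose basal and cycling cell sums were 122 to 164 in TNF and 112 to 148 in control libraries, with Lgr5 the row that rose and Ezh2 the row that fell among 10.

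Members of the superfamily outside the 10 were then tested, in the fit over all rows, in which 10.9% of rows rose and 27.2% fell, 38.0% in all (limma, adjusted p below 0.05). Of 6, 0 rose and 1 fell, with 1 higher at an unadjusted p below 0.05 in limma. Parp6, a member that adds single units and is known from neurons, fell to 7.14, 7.31 and 8.15 FPKM in TNF libraries, against 35.9, 30.3 and 52.7 FPKM in control libraries, by 2.22 ± 0.23 on the log2 scale (adjusted p = 0.000908, limma). A second, lower row of Parp6 also fell.

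The antiviral zinc finger protein gene Zc3hav1, whose product lacks enzyme activity, had 11.1, 13.3 and 12.5 FPKM in TNF libraries, against 7.99, 8.66 and 9.55 FPKM in control libraries, which do not overlap but did not pass (0.45 ± 0.18, adjusted p = 0.091, limma). The count of genes in this list that rose was 1 without TNF replicate 1 and after median-of-ratios, upper-quartile or quantile scaling. Another row of the same symbol and locus fell, to 0.566 to 0.86 FPKM in TNF libraries, against 6.99 to 21.8 FPKM in control libraries, so the level of Zc3hav1 is uncertain.

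Tiparp, a target of the aryl hydrocarbon receptor, had 16.0, 66.6 and 74.7 FPKM in TNF libraries and 50.9, 35.7 and 30.7 FPKM in control libraries, with TNF replicate 1 below all controls (adjusted p = 0.836, limma). The tankyrase genes Tnks and Tnks2 and the endoplasmic reticulum member Parp16 did not pass either (adjusted p = 0.316, 0.734 and 0.561). The median log2 difference of the 6 was −0.05, against −0.22 for all rows.

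Deltex ubiquitin ligases, which can act on ADP-ribose, changed in both directions. Of 5, 2 rose and 1 fell, beside 10.9% and 27.2% of all rows, with a median of −0.08. Besides Dtx3l, Dtx2 rose to 13.2, 12.4 and 12.3 FPKM in TNF libraries, against 5.32, 3.89 and 4.64 FPKM in control libraries (1.29 ± 0.19, adjusted p = 0.00278, limma). Dtx1, a Notch pathway gene, fell to 6.17, 0.332 and 0.338 FPKM, against 16.7, 18.7 and 43.4 FPKM in control libraries (−3.42 ± 0.72, adjusted p = 0.0108, limma). Without control replicate 4 and TNF replicate 1 together, Dtx1 missed the filter on low values and went untested. Dtx3 and Dtx4 did not pass (adjusted p = 0.0579 and 0.854). The calls of Dtx2 and Dtx3l were lost when libraries were scaled to the HBC list, and that of Dtx2 also with the replicate number as a block.

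Enzymes that remove ADP-ribose, its readers and the cofactors of PARPs were tested next. Of 16 tested rows, 0 rose and 4 fell, beside 10.9% and 27.2% of all rows, with a median of −0.42 (limma; 1 higher at an unadjusted p below 0.05). Macrod2, which strips the last ADP-ribose unit from proteins, fell to 16.7, 13.9 and 13.8 FPKM in TNF libraries, against 80.3, 53.4 and 80.8 FPKM in control libraries (−2.18 ± 0.21, adjusted p = 0.00073, limma). Its relative Macrod1 fell by 1.69 ± 0.41 (adjusted p = 0.0173), a call lost without control replicate 1 or 4 or TNF replicate 3 or 4. The RNA-decapping and ADP-ribose hydrolase gene Nudt16 fell by 1.03 ± 0.23 (adjusted p = 0.0139, limma). That call was lost without control replicate 1 or TNF replicate 3 and with the replicate number as a block. The macrodomain histone gene H2afy2 fell by 0.78 ± 0.20 (adjusted p = 0.0201, limma). Its call was lost when control replicate 1 or 4 or TNF replicate 3 or 4 was left out. It was also lost after median-of-ratios or upper-quartile scaling and with the block. Leaving out TNF replicate 1, 6 rows fell, against 1 without TNF replicate 3 or control replicate 1 and 2 without TNF replicate 4. Parg, which degrades ADP-ribose chains, was at 31.8 ± 10.2 FPKM in TNF and 35.5 ± 3.90 FPKM in control libraries (SD, n = 3 each; adjusted p = 0.585, limma).

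Of 20 tested rows for enzymes that make or consume NAD, 2 rose and 4 fell, beside 10.9% and 27.2% of all rows, with a median of −0.05. Among these calls 2, Bst1 and Nmnat2, passed the filter on low values only through the group where they are high. Naprt, which makes NAD from nicotinic acid, rose to 151, 64.6 and 63.8 FPKM in TNF libraries, against 24.4, 41.6 and 16.1 FPKM in control libraries (1.71 ± 0.45, adjusted p = 0.0241, limma), a call lost without control replicate 1 or 4 and under scaling to the HBC list. Its exons overlap those of Eef1d. Bst1, an ectoenzyme that consumes NAD, had 3.37, 24.4 and 26.9 FPKM in TNF libraries, against 0.442, 0.228 and 0.719 FPKM in control libraries. No control library reached 1 FPKM, so Bst1 is given as values, without its p. Its exons overlap those of Fbxl5, and its TNF values stood in the same order as the fibroblast marker sums, lowest in replicate 1. In control replicates 1, 2 and 4 these sums were 528, 450.0 and 141, an order that Bst1 did not follow. The part of fibroblasts in the Bst1 values was not tested.

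Nmnat2, which keeps axons supplied with NAD, had 0.48, 0.162 and 0.253 FPKM in TNF libraries, against 3.50, 2.83 and 3.64 FPKM in control libraries. No TNF library reached 1 FPKM, so it too is given as values. Sarm1, the NAD-cleaving trigger of axon loss, fell by 1.53 ± 0.34 (adjusted p = 0.0128), a call lost without TNF replicate 3 and under quantile normalization. The neuron marker lists fell in the same libraries, and their part was not tested. Nampt, the enzyme that recycles nicotinamide after PARPs use NAD, was at 24.7 ± 8.10 FPKM in TNF and 16.9 ± 4.8 FPKM in control libraries (adjusted p = 0.267, limma). The count of rows in this list that rose ran from 0 (without control replicate 1) to 3 (without TNF replicate 1) and that of rows that fell from 1 (without TNF replicate 3 or control replicate 1) to 5 (without TNF replicate 1), where Bst1 goes untested when a TNF library is left out and Nmnat2 when a control library is left out.

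Repair genes that work with PARP1 and PARP2 were also tested. In base excision and single-strand break repair, 0 of 21 tested rows rose and 3 fell, beside 10.9% and 27.2% of all rows. The median was −0.30, against −0.22 for all tested rows. At an unadjusted p below 0.05, 1 row was higher and 6 were lower (limma). Without TNF replicate 1, 5 fell. Tdp2, which frees trapped topoisomerase from DNA, fell to 19.2, 18.7 and 20.0 FPKM in TNF libraries, against 41.6, 34.9 and 44.2 FPKM in control libraries (−1.02 ± 0.16, adjusted p = 0.00309, limma). The call of Tdp2 was lost with the replicate number as a block. The thymine glycosylase gene Tdg fell by 1.17 ± 0.21 (adjusted p = 0.00571, limma). Polb, the gap-filling polymerase, fell by 0.82 ± 0.17 (adjusted p = 0.00908, limma), a call lost without control replicate 1 and with the same block. The scaffold gene Xrcc1, which binds PARP1 products, was at 15.8, 13.6 and 14.9 FPKM in TNF and 17.9, 20.3 and 27.2 FPKM in control libraries (adjusted p = 0.0865, limma). In double-strand break repair, 0 of 24 tested rows rose, with a median of −0.07 (limma, 0 higher at an unadjusted p below 0.05). Of these rows 1 fell, beside 27.2% of all rows, and 4 were lower at an unadjusted p below 0.05 (limma). The row that fell was Xrcc4, a partner of the ligase in end joining. It was at 17.6 ± 0.948 FPKM in TNF and 33.7 ± 5.91 FPKM in control libraries (adjusted p = 0.00954, limma). Its call was lost without control replicate 1 and with the replicate number as a block. Under scaling to the HBC list, 16 and 15 rows of these lists fell and 0 rose. Of all 15285 rows tested under that scaling, 9200 fell and 239 rose.

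Of 14 tested interferon receptor and signalling rows, 9 rose and 0 fell (limma; 0 lower at an unadjusted p below 0.05), with a median of 1.09, beside 10.9% of all rows that rose. The transcription factor gene Irf7 rose by 2.13 ± 0.26 (adjusted p = 0.00147) and Ifngr1, an interferon gamma receptor chain, by 1.39 ± 0.22 (adjusted p = 0.00323). The merged row of Irf9 and Rnf31 rose to 53.4, 54.8 and 56.9 FPKM in TNF libraries, against 20.1, 28.6 and 25.6 FPKM in control libraries (1.13 ± 0.17, adjusted p = 0.00296, limma). The call of this merged row was lost with the replicate number as a block.

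Of 31 tested rows of interferon-induced genes, 24 rose and 1 fell, beside 10.9% and 27.2% of all rows. The median was 1.71, close to the values of Parp9, Parp12 and the Parp10 row and to that of Parp3 of the DNA repair class. Zbp1 rose by 2.83 ± 0.29, Psmb9 by 2.57 ± 0.27, Tap1 by 3.07 ± 0.36 and Oas1a by 2.1 ± 0.24 on the log2 scale (adjusted p from 0.000865 to 0.00125, limma). The exons of Psmb9 and Tap1 overlap, so some fragments may be shared between their values. Cmpk2 was the row that fell (−1.22 ± 0.33, adjusted p = 0.0264, limma), a call that did not hold when any TNF library or control replicate 1 or 2 was left out or after median-of-ratios scaling. When control replicate 1 was left out, 12 rows rose, against 15 without TNF replicate 3 and 16 without TNF replicate 4. Of the signalling rows, 6 rose without control replicate 1 or 4 or TNF replicate 3 or 4. Scaled to the HBC list, 4 of the induced and 0 of the signalling rows rose, beside 239 of all 15285 rows tested under that scaling.

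Of the 2 vault proteins that accompany PARP4, the merged row that holds Mvp, the main shell protein, rose to 108, 103 and 93.6 FPKM in TNF libraries, against 21.7, 31.8 and 26.1 FPKM in control libraries (1.91 ± 0.18, adjusted p = 0.000668, limma), a call lost under scaling to the HBC list. That row also names Pagr1a, Pagr1b and Prrt2. Tep1, which lies 2758 bases from Parp2, was at 1.04, 1.08 and 0.968 FPKM in TNF and 0.978, 1.27 and 1.52 FPKM in control libraries (adjusted p = 0.527, limma).

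**Figure D4:**
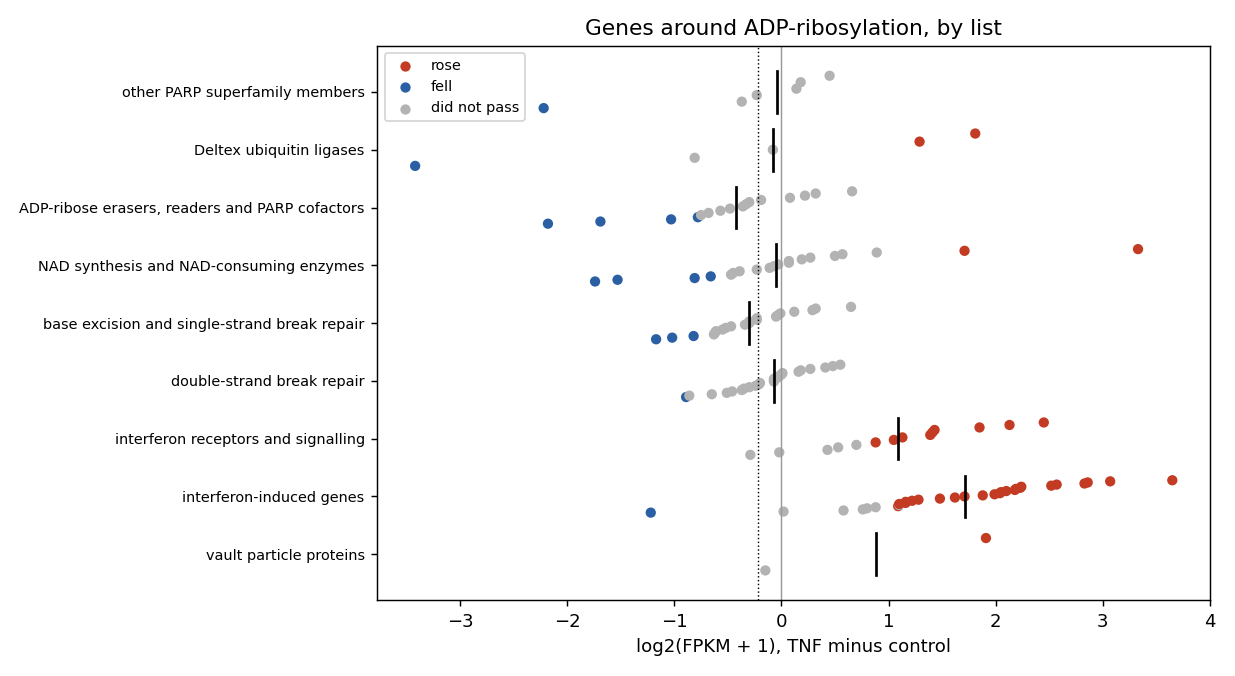
Difference in log2(FPKM + 1), TNF minus control, of each tested row in 9 gene lists, red where it rose, blue where it fell and grey where it did not pass (limma, adjusted p below 0.05), with list medians in black and the median of all rows, −0.22, as a dotted line. Rows of the interferon-induced list lie mostly to the right, with a median of 1.71, and those of the double-strand break repair list around −0.07.

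The rows most like Parp14 and Parp1 were sought by the root mean square distance of log2(FPKM + 1) minus the control mean over the 6 libraries, among 13352 rows. Among the 5 rows nearest to Parp14 were Myh9 (0.075 log2 units), Nuak2 (0.086), Thsd4 (0.111) and Ptger3 (0.117), and these 4 are in neither interferon list. Myh9, the nonmuscle myosin heavy chain gene, had 31.5, 43.5 and 38.7 FPKM in TNF libraries, against 13.9, 20.2 and 9.74 FPKM in control libraries. Nearest to Parp1 were Zer1 (0.023), Smarca4 (0.057), Fam160a2 (0.058), Agfg2 (0.060) and Psmf1 (0.063). The chromatin remodelling ATPase gene Smarca4 had 22.9, 19.2 and 16.7 FPKM in TNF libraries, against 21.4, 27.7 and 33.1 FPKM in control libraries. With 6 libraries in 2 groups this likeness is a description.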

How the data were processed

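Per the labels' protocols, GFP-positive cells were sorted into lysis reagent, and RNA was amplified with a SMARTer kit for Nextera libraries. The tools named per the submitters' processing notes are Cuffdiff 2.2.1, TopHat2 2.1.1, FastQC 0.10.1 and bcl2fastq, with the mm10 build; their roles and settings are not stated. The FPKM table deposited by the authors holds 44519 rows and 6 libraries, and 99.98% of values above 0 were not whole. It held 0 columns of other samples, and 779 rows named several merged genes. FPKM give no read depth, so no counting interval can be given. FPKM summed to 688190 to 838417 per library, and control replicate 4 and TNF replicate 1 correlated least with their groups (0.922 to 0.931 and 0.909 to 0.912 across genes).

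Rows that reached 1 FPKM in 3 or more libraries were fitted with limma 3.58.1 in R 4.3.3 (intensity trend, log2(FPKM + 1), no covariate, Benjamini-Hochberg adjustment over 15037 rows, threshold 0.05). Fold differences on this scale understate the change of low genes. The fit was tested on simulated data. Classes, 9 pathway lists and 11 marker lists (240 entries, 238 matched, 2 through a synonym) were chosen with earlier results of these data known. Irf8 and Tubb3 were not analysed here. A symbol was read from the row of highest mean that names it. Named genes were the members, all genes of the superfamily, Deltex and vault lists, the 4 smallest p past the threshold in each other list, expressed neighbours (at least 1 FPKM) and the 5 nearest rows. A few genes that this rule takes are not reported here. Some neighbours are left out for length, and Parg, Nampt, Xrcc1, Itgb4, marker genes and Cmpk2 were named after their values were seen. Bounds and exon overlaps came from GENCODE M21 (GRCm38, the same build as mm10). Protein sequences were not analysed here. Alternatives were a pseudocount of 0.1, 4 scalings, no filter, single libraries left out, a replicate block, an adjusted p below 0.01 and a promoter window of 150 bases. The omission of control replicate 4 with TNF replicate 1, of Parp10 and of Parp3 were added after the data were seen.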

Additional observations from a re-analysis of the deposited data

How the results depend on the processing

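Over all rows 1635 were higher and 4083 lower. Counts were 239 and 9200 when scaled to the HBC list and 744 and 2246 with the replicate number as a block. They were 787 and 2504 at an adjusted p below 0.01, 795 to 2016 and 1609 to 4924 with a library left out, and 2529 and 4179 without control replicate 4 and TNF replicate 1. Quantile normalization gave 2735 higher rows. The share of higher calls was 28.6% as deposited, 43.0%, 40.7% and 48.0% under median-of-ratios, upper-quartile and quantile scaling, and 2.53% under scaling to the HBC list. The median of all rows was 0.01, −0.01, 0.05 and −1.44 under these scalings. Over the pathway lists 38 rows rose and 15 fell, with 5 and 61 under scaling to the HBC list, 21 to 45 and 6 to 20 with a library left out, 30 and 7 with the block, and 49 and 27 without control replicate 4 and TNF replicate 1.

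The interferon-linked median (1.61) moved beyond the spread between replicates to 0.32 under scaling to the HBC list, and the DNA repair median to −1.52. The class gap moved to 1.54 without Parp3. Among members, Parp2 turned to 0.02 under median-of-ratios scaling and Parp8 to −0.08 under scaling to the HBC list. The cause was not tested. The replicate numbers shared by the groups, 1 and 4, do not pair the libraries in the labels, and deviations correlated at −0.06 and −0.09. The count of members with a promoter match was 2 in either window. FPKM without depth limit what can be said of low genes such as Parp4.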
